A study of Mus musculus with 6 samples.

Results

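Messenger RNAs for the enzymes of glycolysis, of pyruvate entry into mitochondria and of the citric acid cycle were followed in cortical cells that express S100a10, in mice that lack its product p11 throughout the body. The list held 37 genes. A probe set with a single gene symbol was found for 35 of them, out of 18194 genes named in this way in the whole table. Gpi1 and Eno1 were not analysed here. Gapdh was represented by control probe sets of the array, which stayed out of the tests. For the other 34 genes the brightest probe set was used, and all 34 passed the minimum of 50, set on the mean of at least 1 group. They comprised 14 glycolytic genes, 5 genes of pyruvate entry and 15 genes of the citric acid cycle.

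The FLX group drank fluoxetine, a selective serotonin reuptake inhibitor, at 0.167 mg/ml in 1% saccharine, and the VEH group 1% saccharine alone, both for 15 to 18 days. All mice of both groups carried the S100a10 bacTRAP transgene of line ES691, in which a bacterial artificial chromosome with the S100a10 gene's control regions drives a tagged ribosomal protein, and all were constitutive p11 knockouts, backcrossed for 3 to 5 generations to C57BL/6 from FVB. The sources used here do not give age, sex or the number of mice behind an array. Tagged ribosomes were affinity purified from cortex (TRAP), and 15 ng of bound RNA was amplified and hybridised for each of 6 arrays, 3 per group, so the number of arrays limits the precision. According to the submitters, some cells other than neurons carry the tag too. In such a bulk sample, fewer cells of a type and less RNA per cell cannot be told apart.

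Glycolysis splits glucose into pyruvate in the cytosol. Hexokinase and phosphofructokinase catalyse early steps of the pathway, and lactate dehydrogenase converts pyruvate and lactate into each other. The pyruvate dehydrogenase complex turns pyruvate into acetyl-CoA in mitochondria, and the citric acid cycle oxidises it and feeds electrons to the respiratory chain, the main source of ATP in neurons. Several steps are carried out by isoenzymes that differ between cell types and compartments. Of the genes grouped here with the cycle, Aco1, Idh1 and Mdh1 encode cytosolic enzymes.

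In the arrays as a whole, medians were 38.6 to 42.0 in intensity, and replicates 1 and 2 of both groups correlated at r = 0.987 to 0.995 over tested probe sets. The replicate 3 arrays stood apart, with r = 0.867 to 0.916 against the rest and 0.973 between themselves. Pyramidal neuron markers were present in every array, with summed intensities of 11594 to 20548 in FLX and 11541 to 19933 in VEH arrays over 6 genes. Markers of interneurons, astrocytes and oligodendrocytes were present as well, with 7, 8 and 6 tested genes. The brightest S100a10 probe set ran from 349 to 3111, but no wild-type array stands beside it and the sources do not place it relative to the deletion, so it checks nothing about the genotype.

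No enzyme gene differed between FLX and VEH at the threshold, an adjusted p of 0.05, and the differences that were seen were small and mostly positive. A log2 difference of FLX minus VEH above 0 was found in 27 of 34 genes, against 58.1% of all 12213 tested genes and 63.7% of the 5083 genes with a group mean of 1000 or more. FLX exceeded VEH at each of the 3 replicate numbers in 20 of 34 genes, against 20.2% of all tested genes and 26.1% of the bright ones. The reverse held in 1 gene, Mdh1, against 13.6%. With each replicate number centred on its median over all tested genes, 16 of 34 genes were higher at each number, against 16.7% of all and 21.8% of bright genes. The median over the 34 genes was 0.17, and over all tested genes 0.05.

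By limma with Benjamini-Hochberg adjustment 0 of 34 genes passed, which is also the share among all tested probe sets in both directions (0%), and the smallest adjusted p in the table was 0.9998. With an unadjusted p under 0.05, 0 of the 34 genes were counted, and 83 of 22200 probe sets (0.18% higher and 0.194% lower). That is far fewer than this cutoff would give where no gene differs, so the fit was conservative. It leaves the spread between replicate numbers in its error, and the lack of calls does not show that no gene differs. A limma fit with replicate number as a block also passed 0 of 34 genes and 0 probe sets at an adjusted p of 0.05, and 2 genes, Pfkm and Pfkp, had an unadjusted p under 0.05, against 3.94% of probe sets higher and 4.01% lower.

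**Figure D1:**
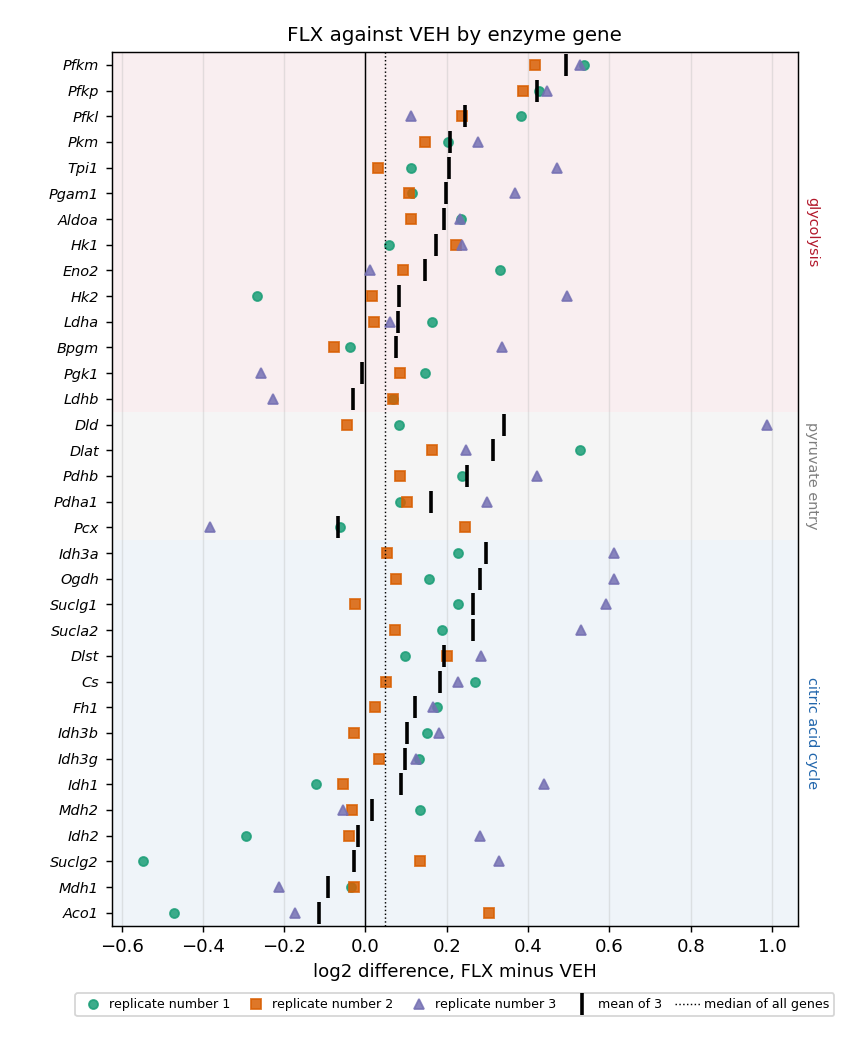
Log2 difference of FLX minus VEH for each enzyme gene (brightest probe set), at each replicate number (coloured symbols) and as the mean of 3 (black bar); shading marks glycolysis, pyruvate entry and the citric acid cycle, and the dotted line is the median of all tested genes. Pfkm and Pfkp lie right of 0 at all 3 replicate numbers with the largest glycolytic means (0.49 and 0.42).

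Phosphofructokinase, which phosphorylates fructose 6-phosphate and sets the pace of glycolysis, is encoded by the muscle (Pfkm), platelet (Pfkp) and liver (Pfkl) type genes, and all 3 are expressed in brain. These had the 3 largest differences of the glycolytic genes. Pfkm had intensities of 8561, 8430 and 14788 in the FLX arrays (replicates 1 to 3), against 5896, 6318 and 10249 in the VEH arrays. The groups overlapped because both replicate 3 arrays were high, but at equal replicate numbers the FLX array was higher each time, by log2 0.54, 0.42 and 0.53. The mean difference was 0.49 (SE 0.34, 95% confidence interval -0.34 to 1.33), a 1.41-fold ratio. Here and below, SE values are from the fit without replicate number unless stated, so they include the spread between replicate numbers. With replicate number as a block the SE of Pfkm was 0.16 and its adjusted p 0.623 (limma).

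Pfkp had 6632, 6224 and 10552 in FLX, against 4930, 4760 and 7737 in VEH arrays. Replicate number by replicate number it was higher by log2 0.43, 0.39 and 0.45, with a mean of 0.42 (SE 0.32). Pfkl had 6393, 6538 and 9763 in FLX, against 4902, 5547 and 9035 in VEH arrays, and its difference was 0.24 (SE 0.32). In each gene replicate 3 was the high array of both groups, and the FLX and VEH ranges overlapped. The dimmer tested probe sets pointed the same way, at 0.53 for Pfkp and 0.41 for Pfkl. That of Pfkp lay near the minimum of 50, at 43.7 to 122.8 over all arrays, and differed most at replicate number 3 (0.92). Without the FLX replicate 3 array the differences were 0.23 for Pfkm, 0.18 for Pfkp and 0.05 for Pfkl, and without the VEH replicate 3 array 0.74, 0.65 and 0.51. Without both they were 0.48 for Pfkm, 0.41 for Pfkp and 0.31 for Pfkl.

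The promoters of the phosphofructokinase genes are shown because all 3 genes passed the test for replicate number given below with the same high arrays. Each sequence is the 250 bases before the outermost listed start in RefSeq (GRCm38.p6), read 5′ to 3′ on the gene's strand. Capitals mark ACGTG on either strand, a form of the core of the hypoxia response element bound by HIF factors, which is known to regulate glycolytic genes. Other forms, such as GCGTG, were not searched for.
Pfkm (chr15:98092339-98092588, plus strand): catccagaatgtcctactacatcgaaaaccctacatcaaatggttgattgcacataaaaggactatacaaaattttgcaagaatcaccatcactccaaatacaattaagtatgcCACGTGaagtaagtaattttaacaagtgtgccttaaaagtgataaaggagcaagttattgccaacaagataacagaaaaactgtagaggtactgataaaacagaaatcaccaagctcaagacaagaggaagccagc
Pfkp (chr13:6648772-6649021, minus strand): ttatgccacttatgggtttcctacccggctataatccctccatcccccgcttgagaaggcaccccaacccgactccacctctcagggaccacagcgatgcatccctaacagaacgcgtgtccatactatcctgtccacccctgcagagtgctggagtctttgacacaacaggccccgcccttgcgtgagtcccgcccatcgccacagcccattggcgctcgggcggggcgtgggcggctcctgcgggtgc
Pfkl (chr10:78009808-78010057, minus strand): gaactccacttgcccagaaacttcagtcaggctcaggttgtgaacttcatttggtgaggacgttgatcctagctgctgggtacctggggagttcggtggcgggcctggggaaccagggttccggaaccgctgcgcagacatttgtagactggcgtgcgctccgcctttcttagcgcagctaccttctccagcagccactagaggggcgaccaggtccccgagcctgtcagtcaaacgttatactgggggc
ACGTG was found in Pfkm, where matches on both strands overlap in a single CACGTG, and not in the windows of Pfkp and Pfkl. Its absence there does not show that these windows lack the element, since both hold the unmarked letters GCGTG. Pfkm has 4 listed starts, and the arrays do not tell which was used. Over the list 36 genes matched a promoter, 10 of them held the motif (27.8%), and so did 16.5% of the outermost windows of 27025 genes. A match is a description of these letters and no evidence of binding.

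The other glycolytic genes differed less. In all, 12 of the 14 glycolytic differences were positive, and 10 genes were higher in FLX at each replicate number. Hexokinases trap glucose in the cell. Hk1, the hexokinase of brain, had 5406, 5778 and 9735 in FLX, against 5197, 4949 and 8252 in VEH arrays, higher in FLX at each replicate number with a mean log2 difference of 0.17 (SE 0.33). Hk2, the inducible form, was dim, at 171, 214 and 209 in FLX and 205, 212 and 148 in VEH arrays. The difference of Hk2 changed direction between replicate numbers, from -0.27 at number 1 to 0.49 at number 3.

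In the middle of the pathway, Aldoa, the aldolase that splits the sugar, had 44059, 42162 and 53407 in FLX, against 37462, 39004 and 45426 in VEH arrays (log2 difference 0.19, SE 0.20). Tpi1, triosephosphate isomerase, had 48837, 44554 and 52249 in FLX, against 45162, 43586 and 37676 in VEH arrays (0.21, SE 0.19). For both genes the FLX array was higher at each replicate number, while the group ranges overlapped. Of the 5 Aldoa probe sets 4 were positive and the fifth was at -0.14. These probe sets, and others ending in x_at or s_at, can match several transcripts.

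Gapdh, glyceraldehyde-3-phosphate dehydrogenase, was read from its control probe sets along the transcript. The 3′ probe set gave 34320, 33629 and 40947 in FLX, against 28783, 32169 and 44387 in VEH arrays. The middle probe set gave 17607, 18108 and 22308 in FLX, against 13312, 16758 and 20061 in VEH arrays. At the 5′ end the values were 7936, 8454 and 11508 in FLX, against 5768, 7662 and 12487 in VEH arrays. Both ends were higher in FLX at replicate numbers 1 and 2 and lower at 3, whereas the middle was higher at all of them. The 3′ minus 5′ difference, which grows as RNA is shortened, was 2.11, 1.99 and 1.83 in FLX and 2.32, 2.07 and 1.83 in VEH arrays on the log2 scale, so it was smaller in FLX at numbers 1 and 2 and equal to 2 decimals at number 3. Its part in the differences of the other genes was not tested.

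Among the later steps, Pgk1, phosphoglycerate kinase, was near 0 (-0.01), and its 3 probe sets disagreed in sign. Pgam1, phosphoglycerate mutase, was at 0.20 and Pkm, pyruvate kinase, at 0.21, both higher in FLX at each replicate number. Eno2, the enolase typical of neurons, had 24983, 22988 and 38202 in FLX, against 19862, 21550 and 37880 in VEH arrays, a difference of 0.15 (SE 0.34) that shrank to 0.01 at replicate number 3. Bpgm, which makes 2,3-bisphosphoglycerate, was at 0.07.

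Lactate dehydrogenase is built from A and B subunits, of which the B form prevails in tissues that use lactate. Ldha had 11302, 10924 and 14898 in FLX, against 10095, 10771 and 14295 in VEH arrays (0.08, SE 0.24). Ldhb had 38415, 38728 and 46316 in FLX, against 36675, 36982 and 54184 in VEH arrays (-0.03, SE 0.24). The ranges of both genes overlapped between groups, and 3 of the 4 Ldhb probe sets were positive.

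Pyruvate entry was covered by the subunits of the pyruvate dehydrogenase complex and by Pcx, pyruvate carboxylase, which makes oxaloacetate. Pdha1, the alpha subunit of its first enzyme, gave 7682, 8412 and 11400 in FLX, against 7242, 7838 and 9259 in VEH arrays. Pdhb, the beta subunit, gave 7370, 7110 and 10308 in FLX, against 6250, 6700 and 7688 in VEH arrays. Both were higher in FLX at each replicate number, with mean log2 differences of 0.16 for Pdha1 and 0.25 for Pdhb. Dlat, the acetyltransferase core, had 3932, 3103 and 7702 in FLX, against 2726, 2772 and 6493 in VEH arrays (0.31, SE 0.49).

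Dld, the dehydrogenase subunit shared with the oxoglutarate complex, had 2491, 2102 and 3871 in FLX, against 2354, 2168 and 1952 in VEH arrays. Its mean of 0.34 came mostly from replicate number 3 (0.99), and it was 0.09 without the FLX replicate 3 array and 0.02 without both replicate 3 arrays. Pcx had 438, 544 and 728 in FLX, against 457, 459 and 949 in VEH arrays, a difference of -0.07 (SE 0.37). Its control probe sets gave 278, 356 and 493 (FLX) and 289, 290 and 635 (VEH) at the 3′ end, but 21.3 to 32.6 over all arrays at the 5′ end, so only the 3′ end lay above the minimum of 50.

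In the citric acid cycle the median log2 difference was 0.10 over 15 genes, 11 of them positive and 7 higher in FLX at each replicate number. FLX and VEH values did not overlap in 2 of these genes, Ogdh and Sucla2, both higher in FLX, against 2.62% of all tested genes and 3.44% of bright ones. FLX lay below VEH without overlap in 0 of 34 genes, against 1.65% of all tested genes. Ogdh, the first subunit of the oxoglutarate dehydrogenase complex, had 3254, 3374 and 4729 in FLX, against 2919, 3202 and 3093 in VEH arrays (0.28, SE 0.22). Its dimmer probe set overlapped between groups, with differences of -0.06, -0.34 and 0.57 at replicate numbers 1 to 3 and a mean of 0.06. Sucla2, the subunit that makes succinyl-CoA ligase form ATP, had 22688, 22804 and 27382 in FLX, against 19904, 21689 and 18950 in VEH arrays (0.26, SE 0.19). For the brightest probe sets of both genes, the lowest FLX value lay just above the highest VEH value.

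Idh3a, the catalytic subunit of the NAD-dependent isocitrate dehydrogenase, had 13282, 11510 and 18415 in FLX, against 11339, 11103 and 12048 in VEH arrays (0.30, SE 0.24), and its 4 tested probe sets were all positive, at 0.09 to 0.43. Its partners Idh3b and Idh3g were at 0.10 each. Suclg1, the subunit common to both succinyl-CoA ligases, had 8816, 7725 and 11769 in FLX, against 7527, 7868 and 7805 in VEH arrays (0.26, SE 0.22). As in Idh3a, Ogdh and Sucla2, the largest of its differences was at replicate number 3 (0.59). Without both replicate 3 arrays the differences were 0.14 for Idh3a, 0.12 for Ogdh, 0.13 for Sucla2 and 0.10 for Suclg1.

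Cs, citrate synthase, which starts the cycle, had 22831, 21304 and 35570 in FLX, against 18932, 20565 and 30379 in VEH arrays (0.18, SE 0.30). Dlst, the succinyltransferase of the oxoglutarate complex, had 3955, 4267 and 6929 in FLX, against 3698, 3711 and 5689 in VEH arrays (0.19, SE 0.31). Both were higher in FLX at each replicate number and overlapped between groups. Fh1, fumarase, was at 0.12.

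The malate dehydrogenases, which shuttle reducing equivalents between cytosol and mitochondria, were nearly level. Mdh1, the cytosolic form, had 47679, 47219 and 49502 in FLX, against 48899, 48182 and 57350 in VEH arrays (-0.09, SE 0.18), and 1 of its 3 probe sets was positive. Mdh2, the mitochondrial form, had 44401, 42491 and 55079 in FLX, against 40442, 43460 and 57210 in VEH arrays (0.02, SE 0.23). Cytosolic Idh1, which makes NADPH, had 2939, 3009 and 4829 in FLX, against 3199, 3126 and 3564 in VEH arrays (0.09, SE 0.26). Aco1, cytosolic aconitase and iron sensor, was at -0.11, while its dimmer tested probe set was at 0.15.

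Glycolysis and the cycle were then set side by side. The median log2 difference was 0.18 for glycolysis and 0.10 for the cycle, 0.08 apart. Without the cytosolic enzymes Aco1, Idh1 and Mdh1, the median of the cycle was 0.15 over 12 genes, nearer to glycolysis. By replicate number glycolysis had 0.15, 0.10 and 0.26 and the 15 cycle genes 0.13, 0.03 and 0.28, against 0.01, -0.01 and 0.15 for all tested genes. Glycolysis minus cycle was 0.02, 0.07 and -0.02 at numbers 1 to 3, so its sign changed between replicate numbers. Without the FLX replicate 3 array the median of the cycle was -0.01 and that of glycolysis 0.04. Leaving out the VEH replicate 3 array gave 0.18 for the cycle and 0.28 for glycolysis. Without both, the medians were 0.08 and 0.13.

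**Figure D2:**
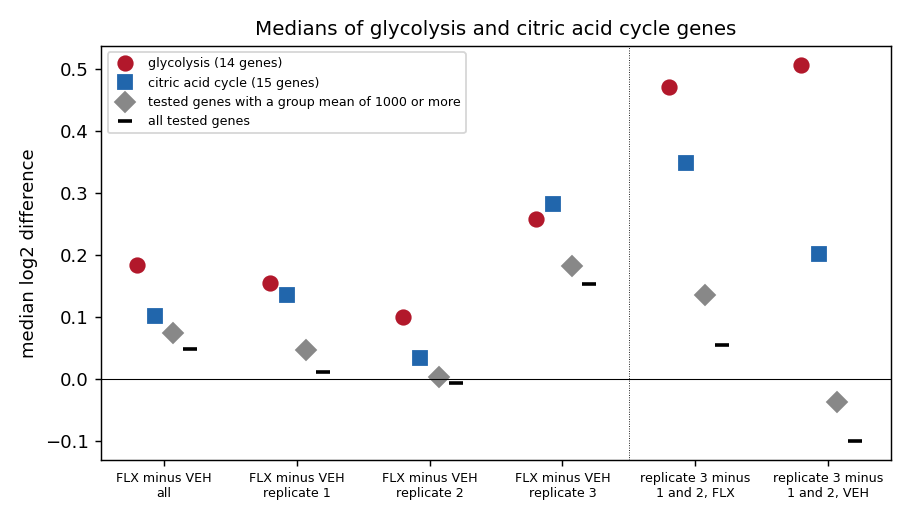
Median log2 difference of 14 glycolytic genes, 15 citric acid cycle genes, tested genes with a group mean of 1000 or more and all tested genes, for FLX minus VEH (left, over all arrays and at each replicate number) and for replicate 3 minus replicates 1 and 2 in each group (right). Glycolysis and the cycle lie above both backgrounds in each contrast and differ most in VEH replicate 3 (0.51 and 0.20).

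More of these genes passed the test between replicate numbers than between treatments. The labels give the numbers and do not say what they stand for. In a limma F test of replicate number with treatment in the model, 11 of 34 genes passed an adjusted p of 0.05, a lower share than the 43.1% of all tested probe sets and the 44.5% of brightest probe sets of all genes. The 11 were Hk1, Pfkl, Pfkm, Pfkp, Eno2, Dlat, Pcx, Cs, Dlst, Idh2 and Suclg2. That replicate 3 stood apart was known from these arrays, so its direction is described without a test. Replicate 3 lay above replicates 1 and 2 of its own group in both groups for 25 of 34 genes, against 36.7% of all tested genes and 40.8% of bright ones. It lay below in both groups for 2 genes, Idh2 and Suclg2, against 37.5% of all tested genes and 35.5% of bright ones.

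**Figure D3:**
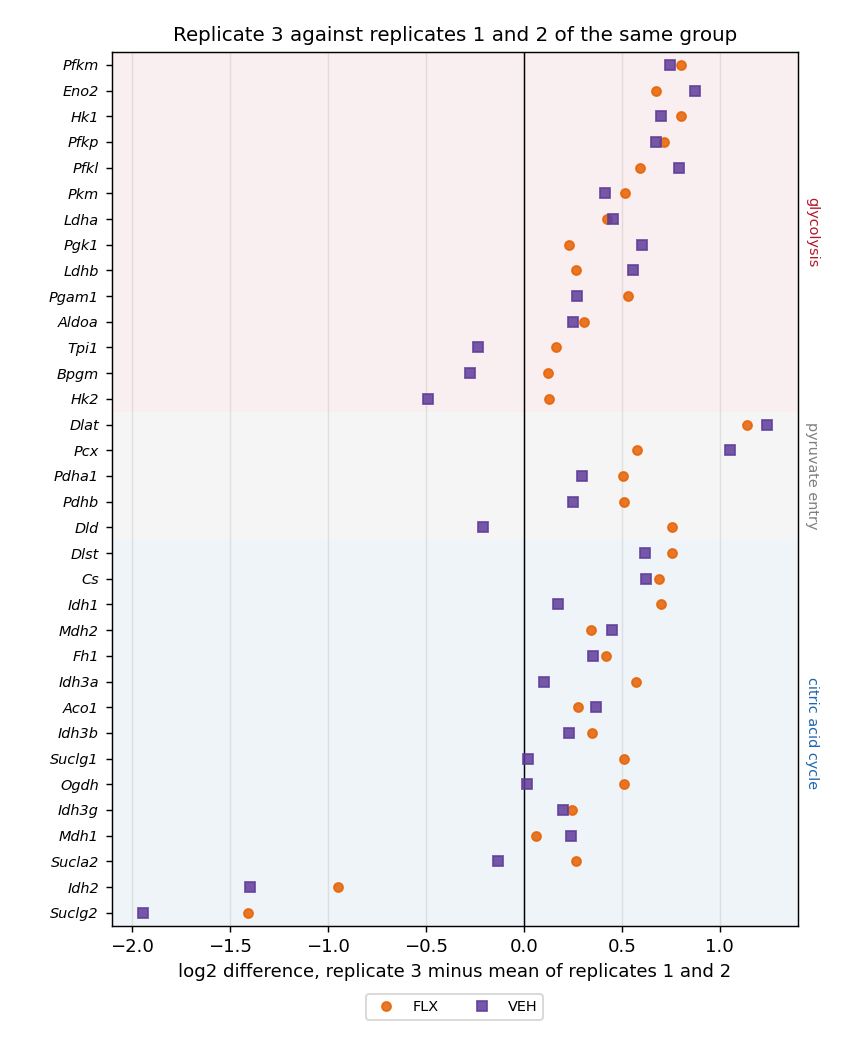
Log2 difference of replicate 3 minus the mean of replicates 1 and 2 of the same group for each enzyme gene, in FLX (circles) and VEH (squares). Most genes lie right of 0 in both groups, whereas Idh2 (-0.95 and -1.40) and Suclg2 (-1.41 and -1.94) lie far to the left.

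Glycolytic genes were higher in replicate 3, with a median of 0.47 in FLX and of 0.51 in VEH arrays, and 11 of 14 were above in both groups. The largest were Pfkm (0.80 in FLX, 0.75 in VEH, adjusted p = 0.0191 by limma's F test), Eno2 (0.67 and 0.87, adjusted p = 0.0227), Hk1 (0.80 and 0.70, adjusted p = 0.0225) and Pfkp (0.72 and 0.68, adjusted p = 0.0281). Tpi1, Bpgm and Hk2 were higher in FLX replicate 3 and lower in VEH replicate 3. Genes of the cycle had a median of 0.35 in FLX and of 0.20 in VEH arrays, where all tested genes had 0.05 and -0.10. Cs stood at 0.69 and 0.62 (limma adjusted p = 0.0394) and Dlst at 0.75 and 0.62 (limma adjusted p = 0.0316). In pyruvate entry Dlat was 1.14 and 1.24 higher (limma adjusted p = 0.0037).

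Suclg2 and Idh2 ran against the rest. Suclg2, the subunit that makes succinyl-CoA ligase form GTP, had 2206, 2890 and 951 in FLX and 3225, 2634 and 757 in VEH arrays, in replicate order. Replicate 3 was lower than replicates 1 and 2 by 2.66-fold in FLX and 3.85-fold in VEH arrays, and the F test gave an adjusted p of 0.00229 (limma). Its second probe set had 431, 636 and 205 in FLX and 750, 575 and 137 in VEH arrays, the same pattern. Its counterpart Sucla2 differed by 0.27 in FLX and -0.13 in VEH replicate 3 and did not pass (limma adjusted p = 0.921).

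Idh2, the NADP-dependent isocitrate dehydrogenase of mitochondria, had 1519, 1876 and 873 in FLX and 1861, 1929 and 718 in VEH arrays, lower in replicate 3 by 1.93-fold and 2.64-fold (limma adjusted p = 0.00527). Its dimmer probe set, at 46 to 95 in all arrays, was higher in replicate 3 instead. By their brightest probe sets the NAD-dependent subunit genes Idh3a, Idh3b and Idh3g were higher in replicate 3 in both groups, by 0.10 to 0.57. A second Idh3g probe set was 0.13 higher in FLX and lower in VEH replicate 3 (-0.17), and a dim Idh3b probe set was at 0.76 in FLX and -0.13 in VEH replicate 3. Between treatments, Suclg2 was at -0.03 (SE 0.68) and Idh2 at -0.02 (SE 0.49), and with replicate number as a block the standard errors were 0.21 and 0.18.

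**Figure D4:**
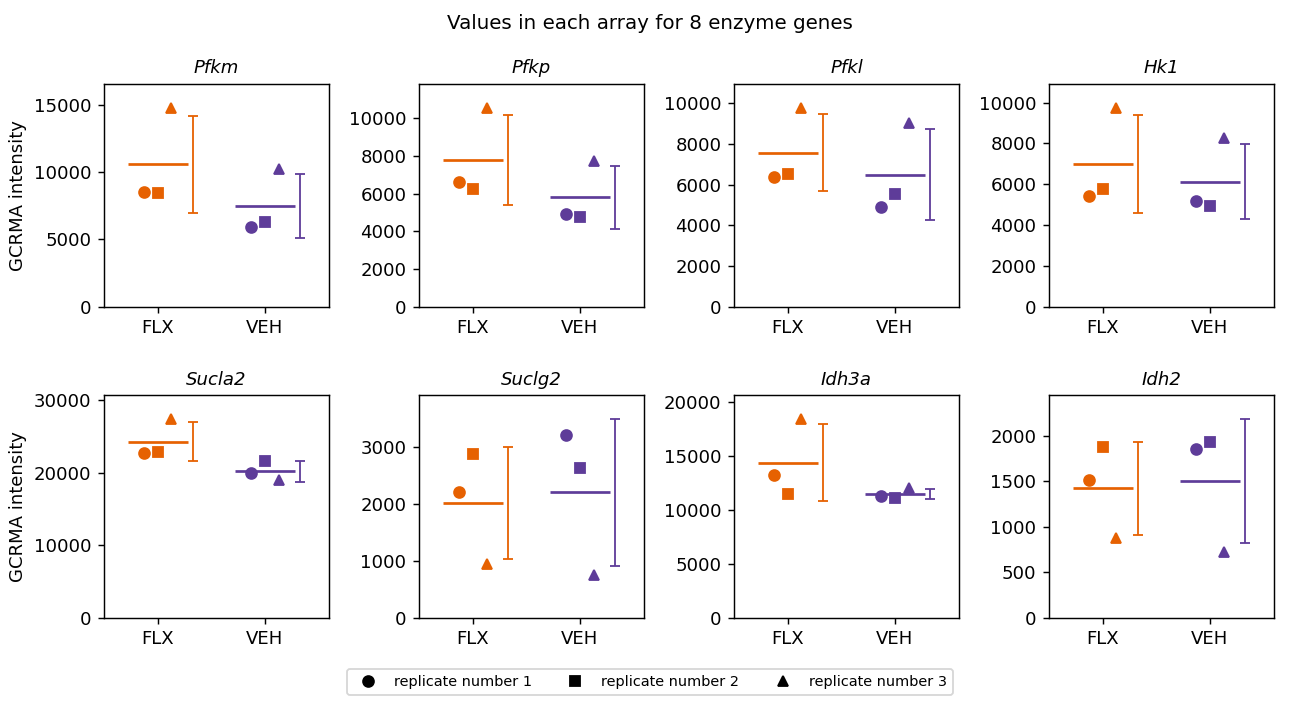
Deposited intensity (linear axis from 0, with a scale of its own in each panel) of 8 enzyme genes in the 3 FLX and 3 VEH arrays; symbols give the replicate number, horizontal lines the group mean and error bars 1 SD. Replicate 3 (triangles) is the high array of both groups for the phosphofructokinase genes and Hk1 and the low array of both groups for Suclg2 and Idh2.

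The upstream sequences of both ligase subunit genes are shown because these subunits, alternatives in 1 enzyme, had unlike values over replicate number. Each is again the 250 bases before the outermost RefSeq start (GRCm38.p6), 5′ to 3′ on the gene's strand, and neither holds ACGTG.
Sucla2 (chr14:73552536-73552785, plus strand): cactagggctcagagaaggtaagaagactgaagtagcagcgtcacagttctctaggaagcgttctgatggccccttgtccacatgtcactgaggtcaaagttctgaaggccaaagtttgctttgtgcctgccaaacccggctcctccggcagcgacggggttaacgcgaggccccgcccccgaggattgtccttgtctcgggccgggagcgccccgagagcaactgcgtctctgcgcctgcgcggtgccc
Suclg2 (chr6:95718847-95719096, minus strand): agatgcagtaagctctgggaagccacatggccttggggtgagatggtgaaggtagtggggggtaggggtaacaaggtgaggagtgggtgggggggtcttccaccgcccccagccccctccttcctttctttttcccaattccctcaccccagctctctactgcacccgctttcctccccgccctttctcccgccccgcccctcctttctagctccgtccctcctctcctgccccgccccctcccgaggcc
By composition both are rich in G and C, at 61.2% for Sucla2 and 64.4% for Suclg2, while Pfkm had 36.4%.

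Markers of other cell types differed by replicate number as well. Leptomeningeal markers (Dcn, Col1a1, Col1a2, Igf2, Ogn, Lum and Foxd1) were lower in replicate 3 in 7 of 7 genes, with summed intensities of 29079, 48948 and 2313 in FLX and 49543, 48564 and 4823 in VEH arrays. Those of pericytes and smooth muscle summed to 4223, 5136 and 2102 in FLX and 8439, 6017 and 2198 in VEH arrays, with Myh11 below 50 everywhere. Within that list 3 of 5 tested genes were lower in replicate 3 of both groups, while Rgs5 had 495, 270.1 and 1427 in FLX and 475, 367 and 1220 in VEH arrays, highest in replicate 3. Astrocyte markers summed to 39550, 52692 and 36055 in FLX and 39277, 44856 and 37938 in VEH arrays. They differed among themselves, with 4 of 8 genes lower in replicate 3 of both groups and 2 higher. Gjb6 had 3762, 7062 and 395 in FLX and 6385, 7008 and 421 in VEH arrays, while Gfap was highest in replicate 3. So was Aldoc, with 19296, 17937 and 26501 in FLX and 12353, 13260 and 30964 in VEH arrays. Aldoc, an aldolase and so itself a glycolytic enzyme, made up most of the astrocyte sum in replicate 3. Endothelial markers were dim, with 3 of 6 below 50 in all arrays and sums of 227, 310.0 and 165 in FLX and 313, 291 and 111 in VEH arrays. Microglial markers summed to 2466, 3437 and 2309 in FLX and 2971, 3376 and 1839 in VEH arrays, with Itgam below 50 everywhere. Among the 5 tested ones 3 were lower in replicate 3 of both groups, while Cx3cr1 was higher in both. Pyramidal neuron markers summed to 14248, 11594 and 20548 in FLX and 11922, 11541 and 19933 in VEH arrays. Among these 6 genes 4 were higher in replicate 3 of both groups, while Slc17a7 was lower in both and Neurod6 was lowest there in VEH only. Interneuron markers summed to 22234, 19150 and 43828 in FLX and 16052, 19851 and 33804 in VEH arrays. Among these 7 genes 4 were higher in replicate 3 of both groups, Gad1 with most of the sum, while Slc32a1 was lowest there in VEH only. Oligodendrocyte markers summed to 24900, 28033 and 66131 in FLX and 24415, 28159 and 65096 in VEH arrays. Of the 6 oligodendrocyte genes 4 were higher in replicate 3 of both groups, Mbp and Cnp with most of the sum, and 2 were lower. The lower ones were Cldn11, with 2128, 4136 and 422 in FLX and 3530, 3838 and 622 in VEH arrays, and Mag. Suclg2 and Idh2 shared their low array with the leptomeningeal, pericyte and smooth muscle, microglial and endothelial sums. The astrocyte sum was also lowest in replicate 3, but by a small margin and with Aldoc going the other way. The phosphofructokinase genes shared their high array with the pyramidal neuron, interneuron and oligodendrocyte sums. Both patterns were common, with replicate 3 above in both groups for 36.7% and below in both for 37.5% of all tested genes. The part of these cell types in the enzyme values was not tested.

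Between treatments the same marker sums had wide ranges. Leptomeningeal sums were 2313 to 48948 in FLX and 4823 to 49543 in VEH arrays, and astrocyte sums 36055 to 52692 in FLX and 37938 to 44856 in VEH arrays. The astrocyte median was 0.33 over 8 genes, 4 of them higher in FLX at each replicate number, the interneuron median 0.29 over 7 genes and the pyramidal neuron median 0.19 over 6 genes. Gfap, an intermediate filament protein of astrocytes, had log2 differences of 1.77, 1.22 and 1.498 at replicate numbers 1 to 3. The median was -0.62 for pericyte and smooth muscle markers, with 0 of 5 genes positive, and -0.35 for leptomeningeal markers, with 2 of 7 positive. By limma 0 of these marker genes passed the adjusted threshold, with or without the replicate block. With the block, an unadjusted p under 0.05 was found in 4 of 8 astrocyte, 3 of 5 pericyte and smooth muscle, 2 of 7 leptomeningeal and 1 of 7 interneuron genes. The count was 0 in the pyramidal neuron, oligodendrocyte, microglial and endothelial lists. Over all tested probe sets the shares were 3.94% higher and 4.01% lower. The part of these cell types in the positive differences of the enzyme genes was not tested.

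Other genes of these pathways were given the same fit, and 0 of them passed limma's adjusted threshold in any list. The rest of glycolysis with glucose and lactate transport had 14 tested genes with a median of 0.21, 10 of them positive. Slc2a3, the neuronal glucose transporter, had 3854, 3625 and 2039 in FLX, against 2634, 3494 and 1620 in VEH arrays, higher in FLX at each replicate number (0.31). Slc2a1, the glucose transporter of the blood-brain barrier and astrocytes, had 994, 1029 and 480 in FLX, against 1139, 1101 and 747 in VEH arrays, lower in FLX at each number (-0.31). Both transporters were low in replicate 3, the opposite of most glycolytic enzymes. Slc16a7, a lactate transporter, was at 0.63, with 0.26, 0.07 and 1.56 at replicate numbers 1 to 3 and its lowest value (42.5) in VEH replicate 3.

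Regulators of pyruvate dehydrogenase had a median of 0.05 over 8 genes, 5 of them positive. Pdk4, a kinase that switches the complex off, was at 0.52, and Pdp2, a phosphatase that switches it on, at -0.32. The remaining cycle and anaplerosis genes had a median of 0.26 over 14 genes, with 12 positive and 9 higher in FLX at each replicate number. Got1 (cytosolic aspartate aminotransferase), a partner of Mdh1 in the malate-aspartate shuttle, had 9202, 8159 and 13309 in FLX, against 6298, 7053 and 7910 in VEH arrays, with no overlap and a difference of 0.50. Glud1, glutamate dehydrogenase, which feeds oxoglutarate into the cycle, was at 0.48, with 0.13, 0.26 and 1.04 at replicate numbers 1 to 3. Pentose phosphate genes had a median of -0.04 over 6 genes and glycogen genes 0.07 over 7. Pgls and Pgd, enzymes of the oxidative branch of the pentose phosphate pathway, were at -0.55 and -0.35, lower in FLX at each replicate number. Most of this lay at replicate number 3, since the differences at numbers 1 to 3 were -0.26, -0.06 and -1.33 for Pgls and -0.35, -0.02 and -0.68 for Pgd. In the glycogen list Pgm1, phosphoglucomutase, was at 0.26 and Pygb, the brain phosphorylase, at 0.11.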

How the data were processed

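Ribosome-bound RNA of 6 cortex samples (3 FLX, 3 VEH) was measured on 1-colour Affymetrix mouse arrays. The authors deposited GCRMA-normalized intensities, per the submitters' processing notes. Its version is not given in the sources used, and the range of the values shows a linear scale. Such normalization makes array medians alike, so differences are relative to each array's other probe sets. Of 45101 probe sets 64 are controls. Of the others 34945 carry a single gene symbol in the platform's annotation, 932 several and 9160 none. Those with a mean of at least 50 in at least 1 group were tested (22200). limma 3.58.1 in R 4.3.3 was fitted to log2 intensity without a pseudocount, two-sided, with treatment as the only term, an adjusted p (Benjamini-Hochberg over all tested probe sets) and a threshold of 0.05. Replicate number was tested by a moderated F test with treatment in the model. Lists are described by counts and medians over each gene's brightest probe set.

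Replicate numbers come from the labels. Deviations from the group means correlated at r = 0.70, 0.84 and 0.87 between equal numbers, above the limit of 0.1 for pairing, but also at 0.64 and 0.76 between numbers 1 and 2. The labels call the arrays biological replicates. If their RNA was not from separate mice, the spread is technical. The script was tested on simulated data. For the treatment fit these held no replicate effect, so they do not show how that fit performs where there is one. Alternatives were the replicate block, filters, an offset, normalization, variance trend, averaging of probe sets and leaving out arrays. The members and lists were chosen with earlier results of these data known. Values by array are given for the genes with the smallest p, those differing most by replicate number, those without overlap, isoenzymes, Gapdh and pyruvate entry. Some genes were chosen after their values were seen: Slc2a3, Gjb6, Gfap, Aldoc, Rgs5, Mbp, Cnp, Cldn11, Mag, Slc17a7, Neurod6, Gad1, Slc32a1 and Cx3cr1. So were the comparison with genes of a group mean of 1000 or more and the centring by replicate number. Promoters are RefSeq's (GRCm38.p6). Figures were drawn with matplotlib 3.10.9.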

Additional observations from a re-analysis of the deposited data

How the results depend on the processing

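The count of 0 enzyme genes past limma's threshold for FLX against VEH held under each alternative run: the replicate block, no filter, a minimum of 100, an offset of 16, median centring, quantile normalization, an intensity trend, averaged probe sets, each array left out in turn, and without both replicate 3 arrays. The unadjusted count was 2 with the replicate block (Pfkm and Pfkp, with 1764 of 22200 probe sets) and 2 without both replicate 3 arrays (1348 probe sets), and 0 otherwise. The block changed no call. Over all probe sets the count past the threshold stayed at 0. With 1 array left out, where the other replicate 3 array may lack its counterpart, the median ran from 0.04 to 0.28 for glycolysis, from -0.01 to 0.20 for the cycle and from 0.05 to 0.10 for their difference. The count for replicate number was 10 to 16 over the settings run, 11 as reported and 16 with the intensity trend. Under settings with all 6 arrays, 5 of 272 differences turned sign: Mdh2 with median centring (-0.0075), and Pgk1 (0.032), Ldhb (0.049), Aco1 (0.017) and Mdh1 (0.0046) with averaged probe sets. Without both replicate 3 arrays 6 of 34 did, Hk2 (-0.13), Pgk1 (0.12), Ldhb (0.067), Bpgm (-0.058), Idh1 (-0.089) and Pcx (0.091). Without 1 array 32 of 204 did, in 19 genes whose differences ran over these ranges: Hk1 (-0.094 to 0.41), Hk2 (-0.082 to 0.18), Pgk1 (-0.11 to 0.19), Eno2 (-0.079 to 0.44), Ldha (-0.060 to 0.23), Ldhb (-0.13 to 0.15), Bpgm (-0.017 to 0.16), Pdha1 (-0.0057 to 0.28), Dlat (-0.068 to 0.73), Cs (-0.047 to 0.39), Aco1 (-0.31 to 0.0088), Idh1 (-0.15 to 0.21), Idh2 (-0.48 to 0.30), Idh3b (-0.014 to 0.19), Dlst (-0.057 to 0.40), Suclg2 (-0.68 to 0.44), Fh1 (-0.017 to 0.24), Mdh2 (-0.098 to 0.17), Pcx (-0.26 to 0.28). None of these values had passed the threshold, and the cause was not tested. Array number limits all of these comparisons, and background correction could not be varied from normalized values.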
